A study of Mus musculus with 4 samples.

Results

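Among the merged E2A ChIP-Seq regions of mouse liver, 708 of 4783 lay in an intron, carried no promoter peak and shared no base with a GR region. These intronic regions with E2A but not GR were selected on the peak calls themselves. Overlapping peaks of the E2A replicates, by 1 bp or more, were joined into one region, and joining the GR peaks likewise gave 8795 GR regions. Of the 4783 E2A regions, 2004 shared no base with a GR region, 1448 of these had no promoter peak, and in 709 the leftmost peak was annotated as intronic. The limit of 1500 bp on the width then removed 1 region. The absence of GR, the intronic annotation and the width below the limit are therefore what defined the regions and are not findings about them.

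GR and E2A ChIP-Seq was carried out on livers of male wild-type (E47+/+) C57BL/6 mice, with 2 biological replicates for each antibody and 4 samples in all. The study describes both antibodies as used on the same livers, so by that account GR and E2A samples share animals, and which samples share a liver is not in the labels. The mice were kept on chow and the livers were collected at ZT 10, which is 10 h after lights on. The sample labels call the mice untreated. The study's results name no treatment for this ChIP-Seq and place collection in the late afternoon, as endogenous corticosterone rises. Its description of the supplementary peak list instead calls the livers treated with Dex (dexamethasone, a synthetic glucocorticoid). Which applies could not be settled. The free-text description of both E2A samples names a GR ChIP, for the second one in E47-/- mice. Their titles, antibody (Santa Cruz) and genotype give E2A in E47+/+ mice, and the grouping follows those. The GR antibody was from Proteintech. The ages of the mice are not in the labels, though the study's methods state an age range for all its experiments. Whole liver holds other cells beside hepatocytes. E2A replicate 1 had 4028 peaks and E2A replicate 2 had 1892, and the GR lists had 4291 and 7334 peaks. Positions and annotations are all that the lists hold. The authors brought the libraries of each antibody to the same number of uniquely mapped read pairs before calling peaks. Heights, q-values and reads per peak are not in the lists, so the reads behind a given call are unknown and a wide peak cannot be read as strong binding. Of 8 hepatocyte markers, 7 were the nearest gene of an E2A region and 8 of a GR region. Of 38 markers of other liver and blood cells, 1 was the nearest gene of an E2A region and 7 of a GR region. In either list, 0 were the nearest gene of an intronic region with E2A but not GR. For scale, all E2A regions had 3341 nearest genes and all GR regions 5655.

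The *E2A* gene (*Tcf3*) encodes E12 and E47, basic helix-loop-helix proteins that bind as dimers to the E-Box, CANNTG, and are held off DNA by Id proteins. GR, the glucocorticoid receptor, is a nuclear receptor that binds the palindromic GRE. Introns of liver genes hold many enhancers, short stretches of open chromatin where hepatocyte factors such as C/EBP, HNF4, FOXA and HNF6 meet. The regions described here hold an E2A call and no GR call by selection, which does not show that GR was absent from them.

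The sequences at the widest reproducible regions show the DNA under the E2A calls. The members called in both E2A replicates were ordered by the narrower of the 2 calls, and the central 200 bp of the first 3 are given 5′ to 3′ on the plus strand of GRCm38 (mm10), together with *Etv6*, the only one of the first 15 whose centre holds both E-Box cores CAGCTG and CAGGTG. The *Tmem260* region was added after the sequences were seen, because like *Dapk1* it is a tandem repeat of these cores. Capitals mark CAGCTG and CAGGTG on either strand, so CACCTG in capitals is CAGGTG on the minus strand.
*Dapk1*, chr13:60681429-60681628: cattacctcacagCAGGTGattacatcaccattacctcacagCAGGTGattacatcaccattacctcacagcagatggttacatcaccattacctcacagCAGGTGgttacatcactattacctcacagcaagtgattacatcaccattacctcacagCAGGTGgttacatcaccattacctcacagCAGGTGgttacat
*Aco1*, chr4:40160991-40161190: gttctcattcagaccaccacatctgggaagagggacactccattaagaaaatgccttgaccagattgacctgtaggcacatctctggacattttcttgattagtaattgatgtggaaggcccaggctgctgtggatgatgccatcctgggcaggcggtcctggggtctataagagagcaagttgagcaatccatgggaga
*Mrpl48*, chr7:100591167-100591366: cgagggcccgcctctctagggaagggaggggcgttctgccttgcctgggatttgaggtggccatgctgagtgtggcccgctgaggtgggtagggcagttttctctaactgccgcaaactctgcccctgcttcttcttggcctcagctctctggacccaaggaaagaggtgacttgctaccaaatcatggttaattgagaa
*Etv6*, chr6:134161121-134161320: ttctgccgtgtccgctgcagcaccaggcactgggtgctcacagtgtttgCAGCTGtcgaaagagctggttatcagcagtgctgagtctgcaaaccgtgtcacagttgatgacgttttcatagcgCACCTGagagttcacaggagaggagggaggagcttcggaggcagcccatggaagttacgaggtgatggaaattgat
*Tmem260*, chr14:48475775-48475974: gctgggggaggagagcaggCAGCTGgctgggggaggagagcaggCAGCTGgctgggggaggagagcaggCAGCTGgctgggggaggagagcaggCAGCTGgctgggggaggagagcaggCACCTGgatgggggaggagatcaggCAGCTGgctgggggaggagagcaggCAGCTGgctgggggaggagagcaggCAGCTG

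A second set shows matches to motifs of liver factors, with 16 bp on either side, in members called in both E2A replicates that the choice of genes below named. Capitals mark the match: TTRCRYAA for C/EBP, TGTTTAY for FOX, ATYGATY for HNF6 and TGACGTCA for the cAMP response element CRE, on either strand.
*Thrb*, C/EBP, chr14:17846020-17846059: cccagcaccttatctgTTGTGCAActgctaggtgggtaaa
*Map7*, C/EBP, chr10:20077269-20077308: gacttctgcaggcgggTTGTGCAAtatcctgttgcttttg
*Cnnm1*, C/EBP, chr19:43464232-43464271: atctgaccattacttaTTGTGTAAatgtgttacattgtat
*Egfr*, FOX, chr11:16804150-16804188: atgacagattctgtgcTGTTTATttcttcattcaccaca
*Aox3*, FOX, chr1:58144639-58144677: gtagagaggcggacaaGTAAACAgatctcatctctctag
*Gbe1*, FOX, chr16:70328688-70328726: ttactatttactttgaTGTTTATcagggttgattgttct
*Dusp16*, HNF6, chr6:134764538-134764576: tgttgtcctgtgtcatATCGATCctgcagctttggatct
*Map3k1*, HNF6, chr13:111805448-111805486: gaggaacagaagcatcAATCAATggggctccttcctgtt
*Prcd*, CRE, chr11:116658022-116658061: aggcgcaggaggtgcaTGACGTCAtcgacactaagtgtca
*Map3k1* encodes a kinase of the MAP kinase cascade, *Dusp16* a phosphatase of MAP kinases, *Egfr* the receptor of epidermal growth factor, *Thrb* a thyroid hormone receptor and *Gbe1* the glycogen branching enzyme. In all of these listed examples the match lay within 90 bp of the region's centre. Only the central 200 bp were searched and the match nearest the centre was kept, so the search itself set this closeness.

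Most of the intronic regions with E2A but not GR were seen in a single library. E2A replicate 1 alone called 499 of them (70.5%), E2A replicate 2 alone called 127 (17.9%), and 82 (11.6%, 95% Wilson interval 9.43 to 14.1%) were called in both. Replicate 1 had the longer peak list, and whether an uncalled region fell just below the caller's threshold was not tested. Where both replicates called a region, the calls lay on top of each other. The overlap covered a median of 95.5% of the shorter call, with a range from 36.1 to 100% over the 82 regions, and it reached at least 50% in 80 of them.

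Regions with E2A but not GR were called in both replicates less often than intronic regions that held GR as well. Of all 4783 merged E2A regions, 23.4% were called in both E2A replicates. Among intronic regions with E2A and GR the share was 27.1% (178 of 657), against 11.6% without GR, an odds ratio of 0.35 with a 95% interval of 0.26 to 0.47 (Fisher's exact test, two-sided, adjusted p = 3.26e-12). Against intergenic regions with E2A but not GR, where it was 15.3% (87 of 568), the difference did not pass the threshold of 0.05 (odds ratio 0.72, interval 0.52 to 1.00, Fisher's exact test, adjusted p = 0.12). Without GR replicate 2 it did pass (odds ratio 0.69, exact test, adjusted p = 0.013). Regions are not biological replicates, so these p-values compare the lists obtained from these samples and carry nothing about other mice. Intervals of shares cover counting error only.

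Width moved with this share. The median width was 332 bp without GR (lower quartile 294 bp, upper quartile 401 bp) and 392 bp with GR (321 to 527 bp). Among the narrowest regions of both kinds, up to 303 bp, 3 of 228 regions without GR and 4 of 114 with GR were called in both replicates. Between 355 and 466 bp the counts were 29 of 161 and 57 of 180, and above 466 bp they were 37 of 108 (34.3%) and 105 of 233 (45.1%). Within quartiles of width the Mantel-Haenszel odds ratio was 0.56, closer to 1 than the unstratified 0.35. The width is that of the merged calls, so a call in the other replicate can itself widen a region, and the stratified value is given as a description.

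**Figure D1:**
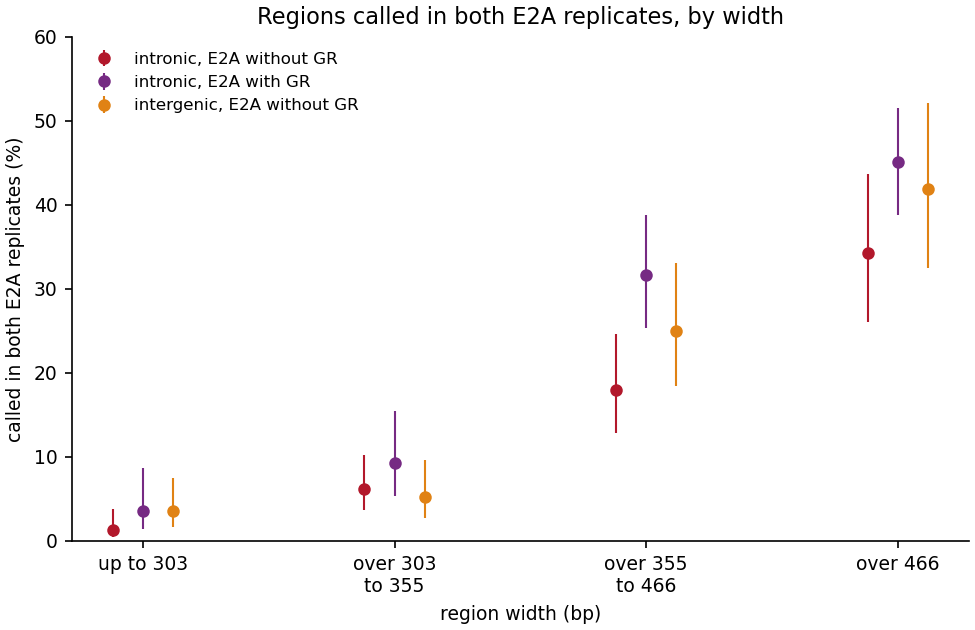
Share of regions called in both E2A replicates (y axis, %) by region width in bp (x axis, quartiles of the pooled intronic E2A regions), for intronic regions with E2A but not GR, intronic regions with both and intergenic regions with E2A but not GR. Bars are 95% Wilson intervals. The share without GR climbs from 1.32% in the narrowest to 34.3% in the widest class and lies below that of regions with GR in each class.

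The widest reproducible calls were made at the following genes. *Dapk1* encodes a calmodulin-regulated death-associated protein kinase, and a region of 980 bp in its intron 2 of 9 was called with 832 bp in E2A replicate 1 and 773 bp in replicate 2. It lay 78828 bp from the deposited transcription start site (TSS) and 1259 bp from the nearest GR region, which was also assigned to *Dapk1*. *Aco1*, cytosolic aconitase and iron regulatory protein, had calls of 708 and 652 bp in intron 1, 16633 bp from GR. *Mrpl48*, a mitochondrial ribosomal protein, had calls of 528 and 488 bp in intron 1, 16042 bp from GR. In each of these the widths of the replicates were close.

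The next by the same order were *Cnnm1* (455 and 474 bp), a member of a family of magnesium transport mediators, the methyltransferase gene *Setd4* (532 and 442 bp), and a region nearest to *Map7* (466 and 433 bp). That region does not lie in *Map7* but in intron 12 of *Map3k5*, which encodes the stress-activated kinase ASK1. Then came *St5* (455 and 423 bp), *Lgals9* (419 and 454 bp), which encodes galectin-9, and *Etv6* (526 and 418 bp), a repressor of the ETS family. *Barhl1*, a homeobox gene of neurons, was the nearest gene of a region in intron 17 of the RNA helicase gene *Ddx31* (415 and 421 bp), 919858 bp from the nearest GR region. *Aox3*, an aldehyde oxidase of liver, *Invs*, *Prcd*, *Ccdc62* and *Nadk*, the NAD kinase that makes NADP, completed the 15, with narrower calls between 368 and 413 bp. Distances to GR among the 15 ran from 1259 bp at *Dapk1* to 919858 bp at *Barhl1*.

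Tandem repeats stood out among these sequences once they were read. A window was counted as a tandem repeat when its bases equalled those 8 to 60 bp further on in at least 70% of positions, a measure chosen after seeing the data. The central 200 bp of *Dapk1* matched itself by 94.7% at a shift of 29 bp, and the 980 bp region held 22 copies of CAGGTG and 28 E-Boxes of any kind. At *Tmem260*, a region of 626 bp in intron 6 of 16, called with 625 bp in replicate 1 and 354 bp in replicate 2 and lying 273109 bp from GR, matched itself by 96.6% at 25 bp. It held 14 copies of CAGCTG and 3 of CAGGTG. No other intronic region with E2A but not GR held more than 4 of these cores. Among the 1393 intronic regions with GR but not E2A the highest number was 8, at *Col18a1*, and among the 657 with both it was 6, at *Epb41l4b*.

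The *Barhl1* region was a perfect repeat as well, identical to itself at a shift of 26 bp, but held 0 E-Boxes, and its FOX match lies inside the repeated unit. *Ppm1b* (100% at 46 bp) and *Palb2* (98.6% at 57 bp), both called in replicate 1 only, also held 0 E-Boxes. In all, 8 of 708 windows (1.13%) were tandem repeats, 3 of the 82 called in both replicates and 5 of the 626 called in 1. The share was 0.435% in flanks, 0.761% in intronic regions with GR, 0.528% in intergenic E2A regions and 0.646% in intronic GR regions. None of these differences passed the threshold (odds ratios 1.49 to 2.62, two-sided Fisher's exact tests, adjusted p = 0.21 to 0.63). How reads were placed within repeats was not tested.

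**Figure D2:**
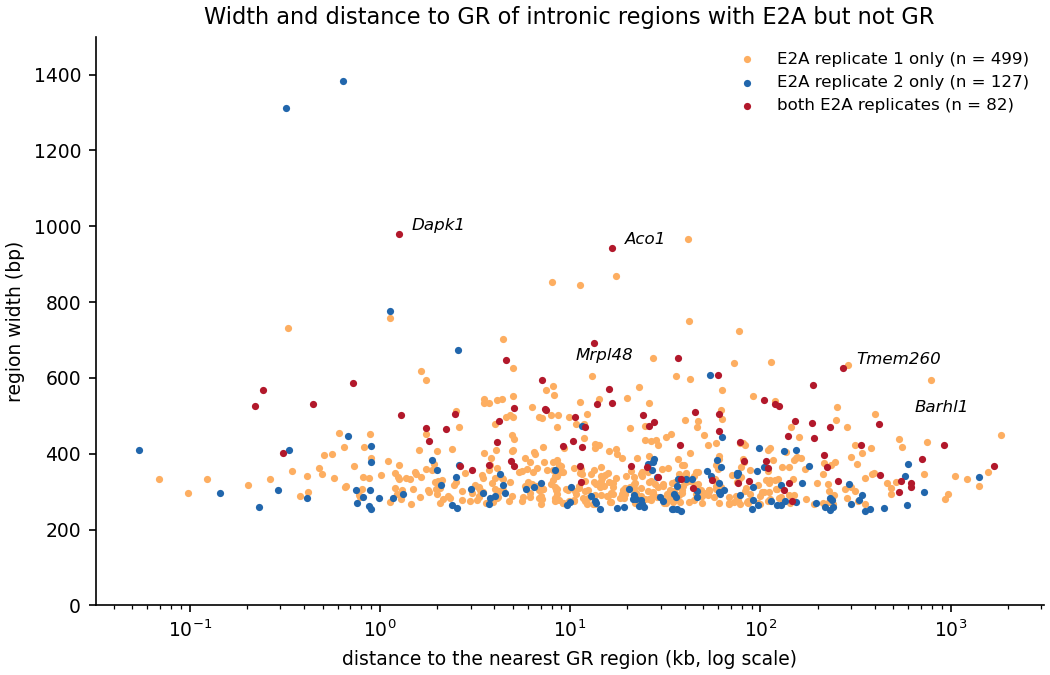
Each point is an intronic region with E2A but not GR, with the distance to the nearest GR region in kb on a log scale (x axis) and its width in bp (y axis). Colours mark calls in E2A replicate 1 only (499), replicate 2 only (127) or both (82). *Dapk1* is the widest of those called in both replicates, at 980 bp, and the widest regions, of 1311 and 1382 bp, were called in replicate 2 only.

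Liver factor motifs were more frequent at the centres of these regions than beside them. Motifs were searched on both strands in the central 200 bp of each region and, as a local reference, in 1379 flanks, which are 200 bp windows at 500 bp from either edge that meet no E2A or GR region. Of 24 motifs, 10 differed from the flanks at an adjusted p under 0.05 (41.7%), 8 of them higher and 2 lower at the regions. Adjustment was over 96 tests, 24 motifs in 4 comparisons. The tests against flanks were unpaired, although each flank belongs to a region, so their p-values and intervals treat all windows as independent. Without E2A replicate 1, 5 of the 24 were called, and with the 82 regions of both replicates 1 was called, HNF6.

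C/EBP factors are leucine zipper proteins that drive liver differentiation and gluconeogenic genes. Their motif TTRCRYAA was found in 78 of 708 windows (11.0%), against 46 of 1379 flanks (3.34%), an odds ratio of 3.59 with an interval of 2.46 to 5.23 (Fisher's exact test, adjusted p = 6.61e-10). The share was 10.2% in regions called in E2A replicate 1 only, 12.6% in those of replicate 2 only and 13.4% in those of both, and the Wilson intervals of the 3 overlapped. Among the letters this motif allows, TTGCACAA was the most frequent at the regions, in 29 windows (4.10%) against 11 flanks (0.798%). TTACACAA stood in 20 windows (2.82%) against 13 flanks (0.943%), and the palindrome TTGCGCAA in 3 windows and 0 flanks.

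HNF6, a homeodomain factor of liver and bile duct, had its motif ATYGATY in 11.7% of windows and 4.35% of flanks (odds ratio 2.92, interval 2.07 to 4.12, adjusted p = 3.96e-08, Fisher's exact test). FOX proteins, among them the pioneer factors FOXA1 and FOXA2, open liver chromatin. The FOX motif TGTTTAY was present in 15.5% of windows and 8.34% of flanks (odds ratio 2.02, interval 1.53 to 2.67, adjusted p = 2.03e-05, Fisher's exact test). HNF4, the nuclear receptor that maintains hepatocyte identity, had its motif CAAAGTYCA in 22 windows (3.11%) and 9 flanks (0.653%), and the looser DR1, with up to 2 mismatches, was present in 12.6 and 8.05% (odds ratio 1.64, adjusted p = 0.012, Fisher's exact test). Of 13 alternatives, HNF4 lost its call in 2 and DR1 in 4, the latter also within bins of GC content (odds ratio 1.47) and without E2A replicate 1 (1.29).

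At least 1 of the C/EBP, HNF4, FOX and HNF6 motifs was found in 254 of 708 windows (35.9%), against 15.5% of flanks (odds ratio 3.05, interval 2.46 to 3.76, adjusted p = 6.84e-24, Fisher's exact test). This joint count was added after seeing the data. The remaining 454 windows (64.1%) held none of them in these letters, 215 held 1 and 39 held 2.

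E-Boxes gave a different picture. CANNTG occurred in 71.5% of windows and in 67.6% of flanks, which was not called (odds ratio 1.20, interval 0.99 to 1.46, Fisher's exact test, adjusted p = 0.25). The cores that E12 and E47 are known to prefer, CAGCTG and CAGGTG, were present in 11.7 and 13.4% of windows against 10.2 and 15.3% of flanks, and neither was called. Other cores were. CACGTG, the E-Box of MYC, USF and clock proteins, was found in 4.52% of windows and 2.10% of flanks (odds ratio 2.20, adjusted p = 0.024, Fisher's exact test). CAACTG was found in 15.4 and 10.4% (odds ratio 1.56, Fisher's exact test, adjusted p = 0.012). CATATG was lower at the regions, 2.26 against 4.57% (odds ratio 0.48, Fisher's exact test, adjusted p = 0.049). These calls were not stable, as CACGTG lost its call in 5 of 13 alternatives, CATATG in 8, and CAACTG in 4, in 1 of which it reversed. Without E2A replicate 1 none of the 3 was called, with odds ratios of 1.56, 0.91 and 1.24, and without E2A replicate 2 CAACTG was not called either (1.52).

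Over whole regions, CAGCTG and CAGGTG cores were counted and are given here without a test. Of the 82 regions called in both replicates, 38 (46.3%) held none of these cores and 8 (9.76%) held 3 or more. Of the 626 called in 1 replicate, 380 (60.7%) held none and 15 (2.40%) held 3 or more. Cores per kb were 2.86 and 1.46. Leaving out the tandem repeats, *Dapk1* and *Tmem260* among them, gave 1.92 cores per kb in 79 regions and 1.46 in 621. In the other kinds of E2A region the order differed. Intronic regions with E2A and GR had 1.46 cores per kb in both replicates and 1.57 in 1, and intergenic E2A regions 0.772 and 1.58. Intronic regions with GR but not E2A had the same order, with 1.70 cores per kb in both GR replicates and 1.51 in 1. Among intronic regions with E2A but not GR, those called in both replicates were also wider. Their median was 438 bp against 330 bp in replicate 1 only and 297 bp in replicate 2 only, and no test was made of this difference.

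**Figure D3:**
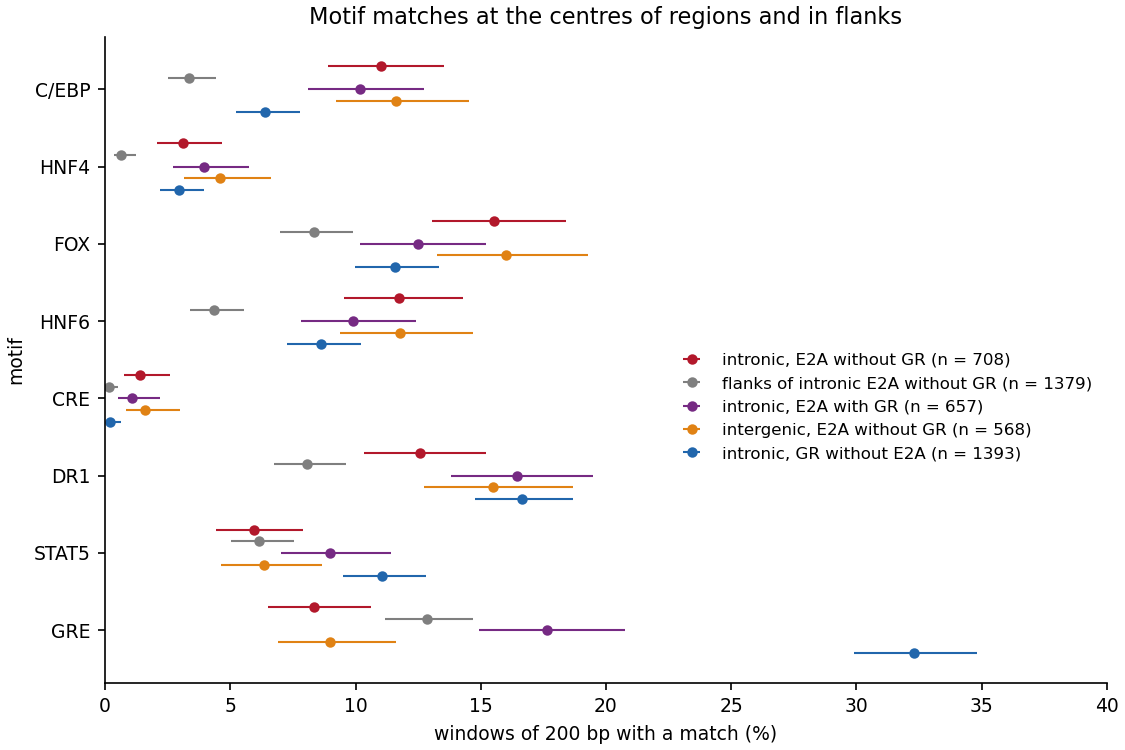
Share of 200 bp windows with a match to each of 8 motifs (x axis, %), for the 708 intronic regions with E2A but not GR, their 1379 flanks, 657 intronic regions with E2A and GR, 568 intergenic regions with E2A but not GR and 1393 intronic regions with GR but not E2A. Bars are 95% Wilson intervals. Regions with E2A but not GR lie close to the other E2A regions for C/EBP, FOX and HNF6, and GRE matches range from 8.33% there to 32.3% in regions with GR but not E2A.

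CREB family members bind the CRE, through which glucagon and cAMP act in liver. TGACGTCA was rare. It was found at 10 of 708 regions (1.41%), 2 of 1379 flanks (0.145%) and 3 of 1393 intronic regions with GR but not E2A (0.215%). In intergenic E2A regions it was found at 1.58% and in intronic regions with E2A and GR at 1.07%, and neither differed by the test. The odds ratio was 9.86 (interval 2.16 to 45.1, adjusted p = 0.0066) against flanks and 6.64 (interval 1.82 to 24.2, adjusted p = 0.014) against intronic GR regions (Fisher's exact tests). The call was lost in 4 of 13 alternatives against flanks and 6 of 13 against intronic GR regions. Without E2A replicate 2 the odds ratios were 6.90 and 6.01 and neither passed, and without GR replicate 1 the latter was 2.47 and did not pass. *Prcd* and *Dleu2* carried it in regions called in both E2A replicates. The *Dleu2* region, 531 bp wide in intron 1, lay 446 bp from GR, that of *Prcd* 24293 bp. *Kat2b*, which encodes the histone acetyltransferase PCAF, *Rgs8*, *Tmem131*, *Kmo*, whose region lies in intron 9 of *Fh1*, and *Ctif* carried it in regions called in replicate 1 only, and *Trio*, *Khdrbs3* and *Gm32511* in replicate 2 only. Named for this motif, these genes were chosen after their values were seen.

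GREs were scarce at these regions. A GRE with up to 2 mismatches was present in 59 of 708 windows (8.33%), less than in their own flanks (12.8%, odds ratio 0.62, interval 0.45 to 0.84, adjusted p = 0.016) and less than in intronic regions with E2A and GR (17.7%, odds ratio 0.42, interval 0.30 to 0.59, adjusted p = 6.43e-06, Fisher's exact tests). Intronic regions with GR but not E2A had 32.3% (odds ratio 0.19, interval 0.14 to 0.25, adjusted p = 5.96e-36, Fisher's exact tests). Intergenic regions with E2A but not GR had 8.98%, and this difference was not called (odds ratio 0.92, Fisher's exact test, adjusted p = 0.90). The regions were selected on the absence of a GR peak, so the GRE share is not independent of the selection. Without E2A replicate 1 the differences from flanks (odds ratio 0.68) and from intronic regions with GR (0.52) were no longer called. The same held with the regions of both replicates (0.45 and 0.36). The difference from flanks was also lost with windows of 100 bp (0.70) and with at most 1 mismatch (0.14). Regions with a GRE match included the reproducible *Lipc* region and regions near *Cpt1a*, *Mitf* and *Mlxipl*.

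Set against the other kinds of region, few motifs differed. The GRE was the 1 of 24 motifs (4.17%) that differed from intronic regions with E2A and GR. Of the 24, 4 (16.7%) differed from intronic regions with GR but not E2A. Beside GRE and CRE, C/EBP was higher (11.0 against 6.39%, odds ratio 1.81, interval 1.32 to 2.49, Fisher's exact test, adjusted p = 0.0038). STAT5, a growth hormone and cytokine effector that also partners GR in liver, was lower (5.93 against 11.1%, odds ratio 0.51, interval 0.36 to 0.72, adjusted p = 0.0013, Fisher's exact tests). STAT5 was not called without E2A replicate 1 (odds ratio 0.72) or without GR replicate 2, where the odds ratio was 1.00, and C/EBP was not called without E2A replicate 2 (1.58). Neither was called with the regions of both replicates. Against intergenic regions with E2A but not GR, 0 of 24 motifs (0%) passed Fisher's exact test after adjustment, and 1 had an unadjusted p under 0.05. C/EBP stood at 11.0% in introns and 11.6% between genes, with an interval of the odds ratio from 0.66 to 1.33.

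Position within the regions followed the shares. C/EBP matches were found in 2.75% of regions per 50 bp bin within 50 bp of the centre and in 0.742% beyond 300 bp, a ratio of 3.71. The ratio was 2.94 for HNF6 and 2.31 for FOX. In the other kinds of region the C/EBP ratio ran from 2.13 to 4.56. The HNF6 ratio ran from 2.14 to 2.86 there and the FOX ratio from 1.51 to 2.02. For the GRE the ratio was 0.602 at these regions, 0.587 at intergenic regions with E2A but not GR and 1.43 at intronic regions with both. At intronic regions with GR but not E2A the GRE ratio was 3.40. These profiles are descriptions, and the lists give no summits, so the centre is the middle of the merged calls.

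**Figure D4:**
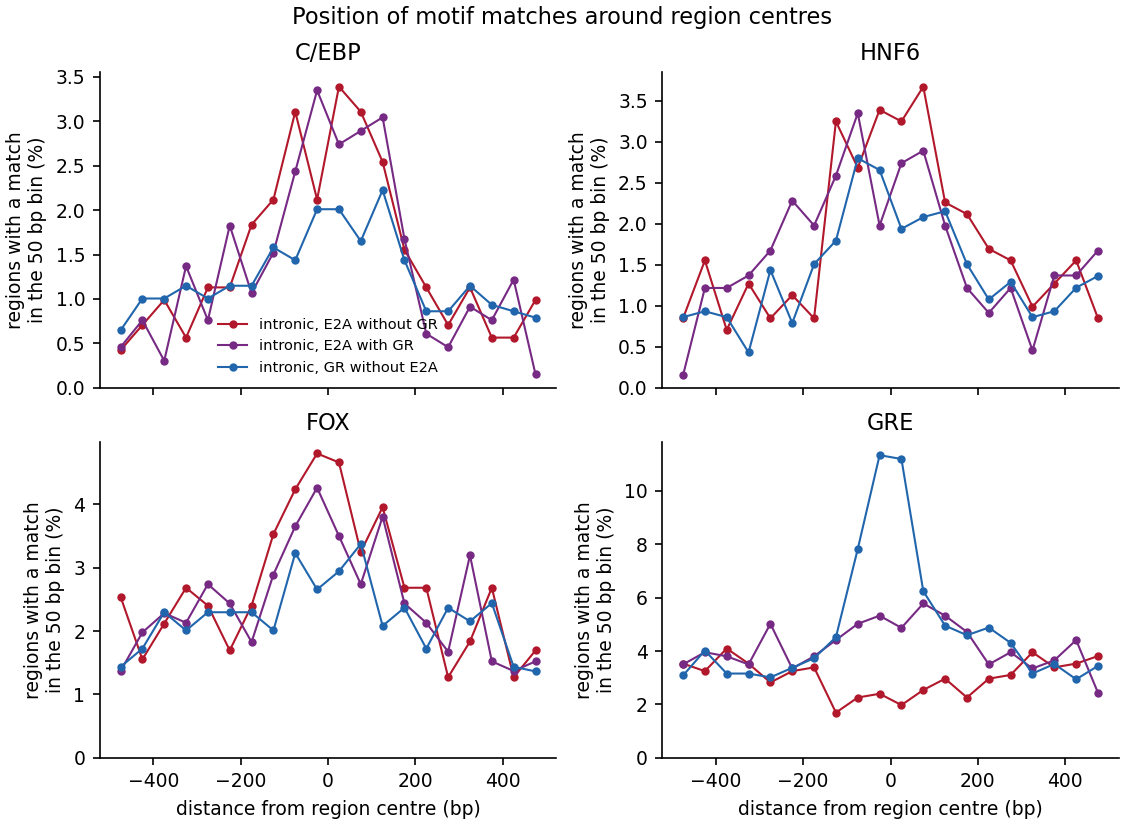
Share of regions with a match in each 50 bp bin (y axis, %) by distance from the region centre in bp (x axis), for C/EBP, HNF6, FOX and the GRE in 3 kinds of intronic region. C/EBP, HNF6 and FOX rise at the centres of regions with E2A but not GR, where the GRE is at 2.19% within 50 bp against 3.64% beyond 300 bp, while it reaches 11.3% next to the centre of regions with GR but not E2A.

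Base composition differed from the surroundings. In 38.0% of the windows at least 50% of the bases were G or C, against 25.2% of flanks (odds ratio 1.82, interval 1.49 to 2.20, adjusted p = 1.19e-08, Fisher's exact test). This was below the 46.6% of intronic regions with GR (odds ratio 0.70, interval 0.57 to 0.87, Fisher's exact test, adjusted p = 0.0047). Without E2A replicate 1 the calls against flanks (odds ratio 1.54, exact test, adjusted p = 0.061) and against intronic regions with GR (0.63, adjusted p = 0.061) were lost, the latter also without GR replicate 1 (0.79, adjusted p = 0.11). The median GC content was 47.0%, against 49.0% with GR and 44.5% in flanks. Windows that were at least 50% soft-masked, which marks repeats known to the assembly's annotation, made up 7.49% of the regions and 17.6% of flanks (odds ratio 0.38, interval 0.28 to 0.52, Fisher's exact test, adjusted p = 5.45e-10). Intronic regions with GR had 5.18%, intergenic E2A regions 6.34% and intronic GR regions 6.03%. None of these differed from the 7.49% by Fisher's exact test (adjusted p = 0.16 to 0.48). Without GR replicate 2 the differences from both intronic kinds passed (odds ratios 2.86 and 1.86). Peaks were called from uniquely mapped read pairs and flanks needed none, so the repeat share is not independent of peak calling. The *Dapk1*, *Tmem260* and *Barhl1* windows had 0% soft-masked bases in spite of their repeats.

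Within genes, intron 1 held 322 of 708 (45.5%), intron 2 held 122, intron 3 held 84, and 137 lay in intron 5 or later. The share in intron 1 was 48.9% for intronic regions with GR and 44.9% for those with GR but not E2A, and neither difference was called (odds ratios 0.87, interval 0.71 to 1.08, and 1.02, interval 0.85 to 1.23, Fisher's exact tests, adjusted p = 0.29 and 0.82). The median distance to the annotated TSS was 13866 bp. The nearest gene in the deposited annotation was also the host gene in 560 of 708 (79.1%), so in the others, such as *Map7* and *Barhl1* above, the name printed is a neighbour of the gene whose intron holds the region.

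Distances to GR spanned a wide range. The median distance to the nearest GR region was 20872 bp, with 51 regions within 1 kb, 260 (36.7%) within 10 kb and 140 (19.8%) beyond 100 kb. Intergenic E2A regions without GR had 34.5% within 10 kb, and the difference was not called (odds ratio 1.10, interval 0.87 to 1.39, adjusted p = 0.48, Fisher's exact test). Without GR replicate 2 it was called (odds ratio 1.39, exact test, adjusted p = 0.0098). *Myo1e*, *Igfbp5* and *Kpnb1* held the nearest, 54, 69 and 98 bp from a GR region, each called in 1 replicate. The farthest were near *Mir6368*, 1835192 bp away, and in *Ppp2r2b* and *Fgf14*. Of the 605 nearest genes, 411 (67.9%) also had a GR peak somewhere. All 8795 GR regions had 5655 nearest genes, and the share among genes of like length is not given here, so this count is a description. A promoter peak of GR was found at the nearest gene of 48.9% of the regions, of 55.9% of intronic regions with GR, of 44.2% of intergenic E2A regions and of 55.3% of intronic regions with GR but not E2A. A promoter peak of E2A was found for 26.6, 29.1, 23.6 and 23.3% in the same order. The kinds were selected on the same peak lists, so these shares are descriptions.

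Just inside the width limit lay *4930572O03Rik* with 1382 bp, *Speer4d* with 1311 bp and *Dapk1* with 980 bp. Just outside lay a region of 1883 bp in *Cyp3a25*.

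The 605 nearest genes had 1 region in 521 cases, 2 in 70 cases and 3 or more in 14. Growth hormone receptor, *Ghr*, and *Cyp3a25*, a cytochrome P450 of the drug-metabolising Cyp3a cluster, had 5 each. All of the *Ghr* regions were called in E2A replicate 1 only, with widths of 336, 301, 280, 296 and 355 bp in the order of the gene, at 4.53, 92.2, 94.0, 131 and 134 kb from its first base. A GR region at 128 kb lay 3033 bp from the fourth of them. Another GR region lay at the *Ghr* promoter, where E2A had a peak too.

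*Cyp3a25* had 13 E2A regions in all, 4 of them overlapping GR. Its 5 intronic regions without GR were called in replicate 1 only, 854 and 844 bp wide in introns 3 and 4 and 319, 301 and 325 bp in introns 11 and 12. The other E2A regions between them included the one of 1883 bp that exceeded the limit. The *Speer4cos* regions were called in E2A replicate 2 only, 777, 379, 257 and 318 bp wide, 898 to 2559 bp from GR, with 61.5, 89.0, 82.0 and 23.5% soft-masked bases. *Speer* genes are a multicopy family of testis, and the peaks rest on the uniquely mapped read pairs that the authors kept.

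**Figure D5:**
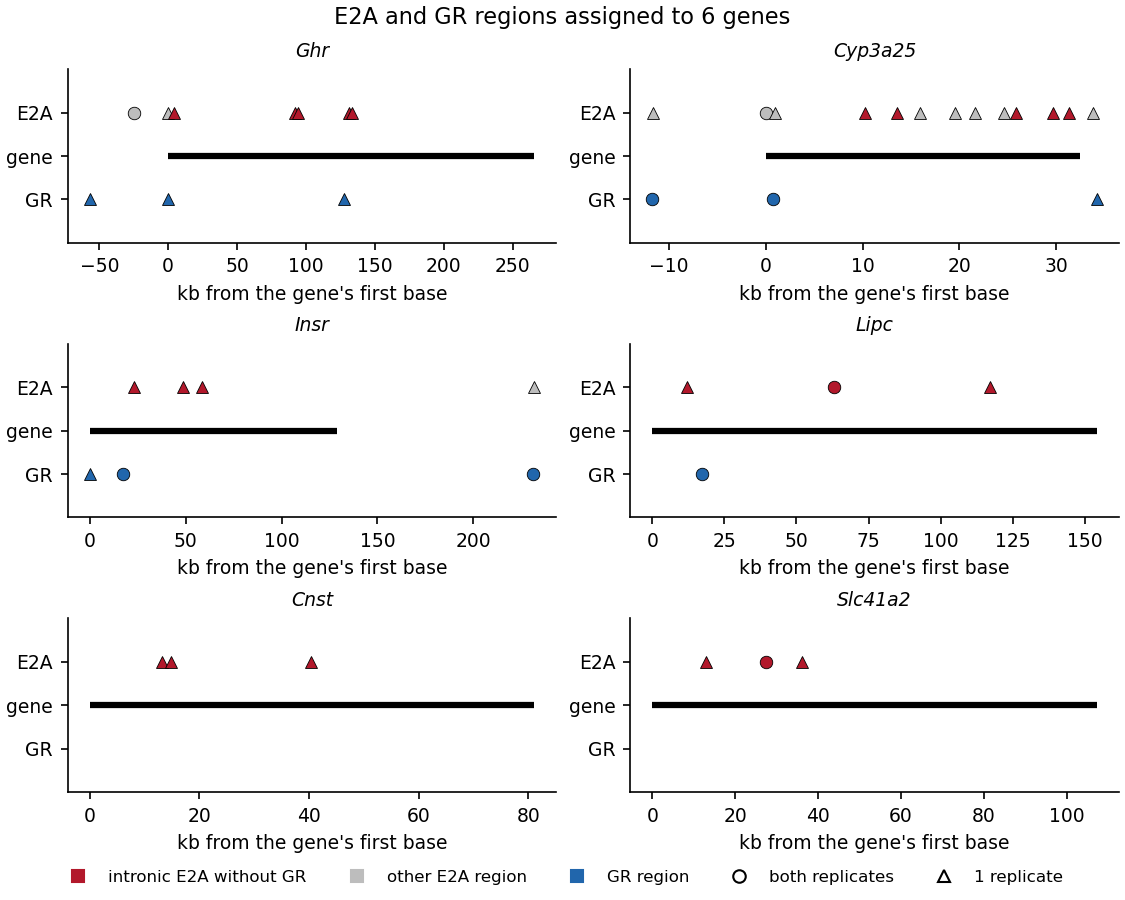
E2A regions (upper row) and GR regions (lower row) assigned to 6 genes by nearest TSS, by distance in kb from the gene's first base along its strand (x axis). The bar is the RefSeq gene, red marks intronic E2A regions without GR, grey other E2A regions and blue GR. Circles were called in both replicates of that antibody and triangles in 1. *Ghr* and *Cyp3a25* have 5 red regions each, and *Cnst* and *Slc41a2* have 3 with no GR region.

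*Insr*, the insulin receptor, had 3 regions in intron 1, of 497 and 348 bp in replicate 1 only and 276 bp in replicate 2 only. They lay 5037, 40560 and 30855 bp from GR. *Lipc*, hepatic lipase, had 3 regions in intron 1. The middle one was called in both replicates, with 279 and 509 bp, and lay 45360 bp from GR, while the other regions, of 407 and 288 bp, were called in replicate 1 only. *Nfia*, a nuclear factor I gene, had 3, each called in 1 replicate and between 38928 and 234356 bp from GR. *Slc41a2*, a magnesium transporter, had 3 E2A regions, 1 of them in both replicates (299 and 422 bp), and *Cnst* had 3 in replicate 1 only. Neither gene had a GR region assigned to it. *Kcnt2*, *Map7*, *Wwc1*, *Foxn3*, *Mir3075* and *Ube2d2b* also had 3 each. The regions named for *Mir3075* lie in introns of *Zmiz1* and those named for *Ube2d2b* in intron 2 of *Evi5*.

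Gene lists put these regions into pathways. Of 21900 RefSeq protein-coding genes, 552 (2.52%) were the nearest gene of at least 1 intronic region with E2A but not GR. Those genes were long, with a median span of 66857 bp against 17146 bp over all protein-coding genes, and except for the helix-loop-helix genes (11131 bp) the pathway lists also had median spans above the latter. The counts that follow are therefore descriptions.

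Of 66 genes of MAP kinase signalling (median span 62012 bp), 8 had a region (12.1%). *Map3k1* was called with 378 bp in E2A replicate 1 and 336 bp in replicate 2, 186907 bp from GR. *Dusp16* was called with 455 and 364 bp, 27553 bp from GR. Both lay in intron 1. *Spred1* and *Nf1*, inhibitors of RAS signalling, the kinases *Map2k6* and *Mapkapk2*, and *Mapkap1* were called in 1 replicate.

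Receptors came next, with 4 of 33 (12.1%). *Egfr* had a region in intron 1 called in both replicates, with 321 and 256 bp, 3037 bp from GR. *Epha2*, an ephrin receptor, had 533 bp in replicate 1 only with an HNF4 match, and the HGF receptor *Met* and *Ghr* were called in 1 replicate. In insulin signalling 5 of 36 genes (13.9%) had a region, namely *Insr*, *Pik3r1*, the regulatory subunit of PI3 kinase, *Foxo3*, *Grb14*, whose region lies in intron 6 of *Cobll1*, and the phosphatase gene *Ptpn1*. The *Foxo3* regions of 450 and 319 bp lay in intron 2. Every insulin list region was called in 1 replicate.

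Among metabolic genes, in glucose metabolism 2 of 37 genes (5.41%) had a region. *Gbe1* had a region in both replicates (530 and 346 bp, 13776 bp from GR) and another in replicate 1 only, which held a C/EBP match. In lipid metabolism it was 7 of 75 (9.33%). *Lipc* was called in both replicates, as given above. *Acsl1*, which activates fatty acids (545 bp), *Mlxipl*, the carbohydrate response factor ChREBP (498 and 374 bp), *Scd1*, the stearoyl-CoA desaturase (402 bp), *Cpt1a*, which carries fatty acids into mitochondria (378 bp), *Lpin2* and *Insig2* were called in 1 replicate. In the lipid list 44 of 75 genes had an E2A region of any kind and 63 a GR region. Among hepatocyte factors it was 24 and 28 of 34, and among MAP kinase genes 22 and 32 of 66. The share over all genes is not given here, so these counts are descriptions.

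Transcription factors were represented by 6 of 34 hepatocyte factors (17.6%), 7 of 38 nuclear receptors (18.4%), 6 of 41 basic helix-loop-helix genes (14.6%) and 2 of 24 clock genes (8.33%). The NFI genes *Nfia*, *Nfib*, *Nfic* and *Nfix* and *Tead1* were called in 1 replicate. *Thrb* had calls of 421 and 351 bp in intron 2, 60890 bp from GR, with C/EBP, FOX and STAT5 matches. *Nr1h4*, the bile acid receptor FXR (506 bp), *Rara*, *Esr1*, *Nr3c2*, *Nr2c1*, whose region lies in *Fgd6*, and *Nr5a2* were called in 1 replicate. Among helix-loop-helix genes *Mitf*, *Mxi1*, *Mnt*, *Arnt*, *Epas1* and *Mlxipl* were each called in 1 replicate, and the *Epas1* region lies in intron 11 of *Prkce* and that of *Arnt* in intron 2 of *Gm4349*. *Arntl*, the clock activator BMAL1, had a C/EBP match in a region of 423 bp, 52822 bp from GR, and *Rora* had one of 344 bp, 1009 bp from GR.

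Coregulators had 7 of 41 (17.1%), among them the Mediator kinase gene *Cdk8* (295 and 269 bp) and *Tbl1xr1*, a subunit of a corepressor complex (286 bp, 783 bp from GR), both called in 1 replicate.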

How the data were processed

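The deposited peak lists hold positions and widths in bp on mm10 (GRCm38), an annotation and a nearest gene for every peak. The authors aligned reads with BWA and kept uniquely mapped read pairs, reduced them to a fixed number per antibody and called peaks in each sample with MACS2. Per the labels, the processing notes name BWA 0.7.13, Picard 1.119 and MACS2 2.1.0. The study's methods name the same BWA but other versions of Picard and MACS2, and which were used could not be settled. The unannotated lists hold the same intervals and were not used.

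Sequence was read from GRCm38 with pysam 0.24.0, and intervals, tests and plots were made in Python 3.11.15 with pandas 2.3.3, scipy 1.17.1, statsmodels 0.14.6 and matplotlib 3.10.9. For 24 motifs, the central 200 bp were searched on both strands, with up to 2 mismatches for the GRE and DR1 and 1 for NFI, and none for the others. Two-sided Fisher's exact tests over regions were adjusted by Benjamini-Hochberg over 96 motif tests, 13 tests of position, composition and replicates, and 14 tests added after seeing the data. The threshold was 0.05. Odds ratios and shares have 95% intervals. Where both lists were stratified by width, the Mantel-Haenszel odds ratio was used.

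Regions were named if they were among the 15 widest by the narrower of both calls, among up to 6 per gene list with reproducible calls first, at a gene with 3 or more, or nearest to a limit. Further list genes are named to complete their counts. Members and lists were chosen with earlier results of these data known. RefSeq and GENCODE gave gene spans and introns, and in 678 regions (95.8%) the centre lay in a GENCODE intron and no exon. Some genes, and 1 gene list with them, are not reported here. Scripts were checked on simulated data. Alternatives concerned the width, window, flanks, GC, repeats, GR overlap and each replicate left out in turn.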

Additional observations from a re-analysis of the deposited data

How the results depend on the processing

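No paired analysis was possible because the tests count regions and not samples, and because labels and file names give the GR replicates opposite numbers. Of the main comparisons under alternatives, 111 kept their side of the threshold or, for counts, their size. Another 13 counts moved, 7 comparisons passed the threshold newly and 3 no longer passed it. An odds ratio that crossed 1 without passing in either version was counted as kept. For example, intron 1 against intronic GR regions went from 1.02 to 0.84 with regions called in both replicates. For the others this was 1177 kept, 22 newly passed and 46 no longer passed, and 2 changed direction with a pass in 1 of the versions. HNF6 against flanks and the GRE against intronic GR regions kept their call in 13 of 13 alternatives. C/EBP and FOX against flanks kept it in 12 of 13, lost only with the 82 regions called in both E2A replicates. Their odds ratios there were 3.34 and 2.15, against 3.59 and 2.02 in the main comparison. The other 11 called motif comparisons lost their call in 2 to 8 of 13. With these 82 regions, 1 motif was called against flanks, 1 against intronic regions with GR and 1 against intronic GR regions. The motif called against intronic regions with GR was not the GRE, whose odds ratio there was 0.36. The odds ratio of CAACTG against flanks turned to 0.96 (Fisher's exact test, adjusted p = 1). With windows of 100 bp, 3 motifs were called against flanks, and the GC difference from intronic GR regions passed at an odds ratio of 0.78. Windows of 400 bp, leaving out masked windows and keeping 1 region per gene (chosen after seeing the data) each gave 2 motifs called against intronic regions with GR.

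Leaving out each replicate in turn gave 211 (without E2A replicate 1) to 898 regions (without GR replicate 2). Motifs called ranged from 5 to 12 against flanks, from 1 to 2 against intronic regions with GR, from 0 to 1 against intergenic regions and from 2 to 5 against intronic GR regions. Odds ratios ranged from 1.07 to 1.39 for 10 kb to GR, from 0.69 to 0.79 for both calls against intergenic regions, and for GC from 1.54 to 1.90 against flanks, from 0.63 to 0.79 against intronic regions with GR and from 0.47 to 0.99 against intronic GR regions. For repeats they ranged from 1.09 to 2.86 against intronic regions with GR and from 0.89 to 1.86 against intronic GR regions. CAGATG against intronic regions with GR ranged from 0.67 to 2.07, the latter without E2A replicate 1. The GC calls against flanks and intronic regions with GR ended without E2A replicate 1, and the latter without GR replicate 1. Without GR replicate 2, the share called in both replicates against intergenic regions, 10 kb to GR, GC against intronic GR regions and both repeat comparisons passed newly, as did GC against intronic GR regions without E2A replicate 1. The causes were not tested. The reads behind a call are not given, so a region uncalled in 1 replicate cannot be taken as free of E2A or GR.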

Other observations

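No intronic region with E2A but not GR lay on chromosome X, where 6 of all 4783 merged E2A regions and 41 of the 8795 merged GR regions were found. Chromosome 4 held 69 of the 708 and 350 of all 4783 merged E2A regions, and chromosome 5 held 66 and 381. No test was made of these counts. On chromosome 5 the *Speer* genes and *4930572O03Rik* contributed the widest regions, *Speer4d* with 1311 bp at 322 bp from GR and *4930572O03Rik* with 1382 bp at 639 bp from GR, both called in E2A replicate 2 only. Their centres were 97.0 and 32.5% soft-masked.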
